A study of Bos taurus with 4 samples.

Results

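The genes that buffer ATP in muscle were followed here as a set of 9: the creatine kinases CKM, CKB and CKMT2, the adenylate kinase AK1, the AMP deaminase AMPD1, and the AMP-activated protein kinase (AMPK) subunits PRKAA2, PRKAB1, PRKAG1 and PRKAG3. Probes were assigned to them by the RefSeq accession printed on the array, which found 6 of the 9 among the 7788 genes that could be named. PRKAA2, PRKAB1 and PRKAG3 had no probe with a matching accession and were not analysed here. Each of the 6 genes found gave a signal well above background in either channel of every array, and each was represented by its brightest probe.

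The RNA came from the semitendinosus, a muscle of the hind leg, of Limousin (LIM) bulls, a beef breed, and of Holstein-Friesian (HF) bulls, a dairy breed used as the reference, all aged 15 months. Each of the 4 arrays carried cRNA of 1 LIM bull in the red dye Cy5 and of 1 HF bull in the green dye Cy3, so each breed was measured in 4 bulls. No array carried the dyes the other way round, so a difference between breeds and a difference between dyes cannot be told apart. The arrays are labelled as biological replicates, and p-values measure the spread between these 4 pairs of bulls.

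Creatine kinase moves a phosphate between ATP and creatine, so that phosphocreatine can refill ATP at once when a fibre contracts. CKM works in the cytosol of muscle fibres at the myofibrils, CKB is the cytosolic form of brain and many other tissues, and CKMT2 sits between the mitochondrial membranes of striated muscle, where it charges creatine with newly made ATP. Adenylate kinase joins 2 ADP into ATP and AMP, AMPD1 removes the AMP by turning it into IMP, and AMPK senses the AMP that remains and shifts the cell towards making ATP.

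Values are log2 ratios of LIM (Cy5) over HF (Cy3), after correction for background and for the dye at each brightness. Their direction follows the dye labels, and for every gene that could be compared this direction was the opposite of the one in the study's text. This held for 12 of 12 genes, and whether the channels carry the breed of their label was not tested. LIM and HF therefore name the channels as labelled, here and below, and with the labels exchanged every ratio would change its sign, so that CKMT2 would stand at 0.48-fold and AMPD1 at 1.99-fold. The muscle origin of the RNA was borne out by all 7 fibre markers with a matched probe, among them ACTA1 and DES, which were well above background. Over all 6376 named genes tested, 5.93% had an adjusted p under 0.05 in limma, 2.78% higher and 3.15% lower in the channel labelled LIM, and the median ratio was 0.0029. Over all probes kept the share was 5.47%.

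Of the 6 energy buffer genes, CKMT2 rose and CKM, CKB, AK1, AMPD1 and PRKAG1 did not pass the test. CKMT2 was 2.07-fold higher in the channel labelled LIM, and it was also the only one of the 6 to pass the methods' t-test, which 10.4% of all genes tested passed. The cytosolic muscle form CKM stood at 0.08 ± 0.07 (moderated SE, n = 4) and AK1 at 0.22 ± 0.13. AMPD1 had the lowest mean ratio of the 6, -0.99 ± 0.27, without passing, and CKB had the widest spread between arrays. The median of the 6 ratios was -0.079, and 3 of the 6 had the same sign on all 4 arrays, against 36.2% of all genes tested.

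**Figure D1:**
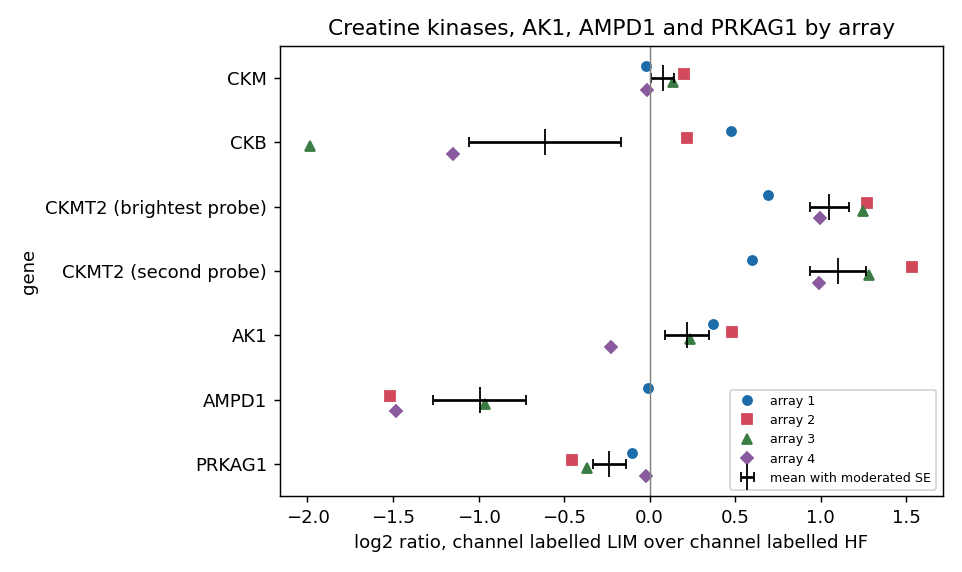
Each gene of the energy buffer with a matched probe, and both CKMT2 probes, are plotted by their log2 ratio of LIM over HF (horizontal axis). Symbols stand for single arrays and the bar for their mean, with the moderated SE; both CKMT2 probes lie above 0 on all 4 arrays, CKM stays between -0.02 and 0.20, and CKB runs from -1.99 to 0.47.

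Among the creatine kinases, CKMT2 had log2 signals of 16.13, 16.47, 16.01 and 15.96 in LIM muscle on arrays 1 to 4, against 15.43, 15.20, 14.76 and 14.96 in HF muscle. Every LIM value lay above every HF value, a separation found in 17.1% of all genes tested and, among the 6 energy buffer genes, in CKMT2 only. The ratios were 0.69, 1.27, 1.25 and 0.99 on arrays 1 to 4, with a mean of 1.05 ± 0.12 (moderated SE, n = 4, adjusted p = 0.0238 in limma). A ratio at least this high was found in 0.439% of the genes tested, a share that would count from the low end with the sign turned. A second, dimmer probe for the same CKMT2 transcript gave 0.60, 1.54, 1.28 and 0.99, with a mean of 1.10 ± 0.16 (adjusted p = 0.0347 in limma). The 2 probes thus ordered arrays 1, 4, 3 and 2 in the same way, from the lowest ratio to the highest, and lay furthest apart on array 2.

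Leaving out any 1 array ended the CKMT2 call in limma, with ratios between 0.98 and 1.17 and adjusted p between 0.0533 and 0.095. In these fits with 3 arrays, between 0 and 51 of all 15856 probes passed.

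CKM had log2 signals of 15.57, 15.62, 16.07 and 15.73 in LIM muscle and of 15.59, 15.42, 15.94 and 15.75 in HF muscle on arrays 1 to 4. The channels overlapped almost fully. Its ratios were -0.02, 0.20, 0.14 and -0.01, and the mean of 0.08 had a 95% interval from -0.099 to 0.25 (adjusted p = 0.53 in limma).

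CKB behaved unlike both. Its log2 signals in LIM muscle were close together at 8.08, 8.12, 7.64 and 8.35, while in HF muscle they were 7.61 and 7.90 on arrays 1 and 2 but 9.63 and 9.50 on arrays 3 and 4. The SD between bulls was 0.30 in LIM and 1.05 in HF. The HF bulls of arrays 3 and 4 therefore lay above every LIM bull and those of arrays 1 and 2 did not. The ratios were 0.47, 0.22, -1.99 and -1.15, and the mean of -0.61 ± 0.44 did not pass (adjusted p = 0.431 in limma). It was -0.15 without array 3, -0.97 without array 1 and -0.18 with median centring. Duplicate spots of the CKB probe differed by at most 0.13 on any array, far less than the arrays did.

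CKB is also made outside muscle fibres, and markers of other cells differed between the same bulls although the study's methods describe dissection free of fat and connective tissue. The summed signal of 4 macrophage markers was 1172, 1457, 1295 and 1786 in LIM muscle on arrays 1 to 4, against 1600, 1512, 2983 and 3360 in HF muscle, and was thus highest in the same HF bulls as CKB. The median ratio of these markers was -0.02, -0.09, -0.87 and -0.91 on arrays 1 to 4, and CD74, an antigen presentation gene, was the brightest of them. None of the 4 passed the test, and CD68 and CD14 were well above background on all arrays. In HF muscle CD74, AIF1 and CD68 were highest on arrays 3 and 4. CD14 had log2 signals of 7.38, 7.45, 7.32 and 8.01 there, and so was lowest on array 3, where CKB was highest. CD68 was dim, with 6.49, 6.52, 6.65 and 6.86 in HF muscle. The summed signal of the 4 adipocyte markers tested was 1686, 1888, 1269 and 2578 in LIM muscle, against 2376, 2410, 3273 and 3806 in HF muscle, with the leptin probe not well above background. In HF muscle this sum followed its brightest member, CFD (adipsin), whose ratio fell by 1.17 (adjusted p = 0.0441 in limma). In LIM muscle it did not, and was highest on array 4, where CFD had a log2 signal of 10.10 and FABP4 10.07. FABP4, which carries fatty acids in fat cells, had ratios of -0.32, 1.29, -1.06 and 2.67. FABP4, CIDEC and PLIN1 had positive mean ratios of 0.64, 0.41 and 0.26 without passing. The median ratio of the 4 adipocyte markers was -0.35, 0.82, -0.74 and 0.75 on arrays 1 to 4. The 5 smooth muscle markers summed to between 2995 and 4148 in LIM muscle and between 3740 and 4540 in HF muscle, and the 3 nerve and Schwann cell markers to between 1096 and 1512 in LIM muscle and between 1186 and 4499 in HF muscle, where array 3 held the lowest value. The 3 endothelium markers tested summed to 730, 649, 720 and 602 in HF muscle on arrays 1 to 4, and to between 472 and 853 in LIM muscle. The 3 erythrocyte markers tested summed to 14646, 7508, 4475 and 9158 in HF muscle, and to between 5802 and 11150 in LIM muscle. Among the HF bulls both of these sums were highest on array 1, where CKB was lowest. The part of all these cells in the CKB values was not tested. In bulk muscle, fewer cells of a type and less RNA per cell cannot be told apart.

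**Figure D2:**
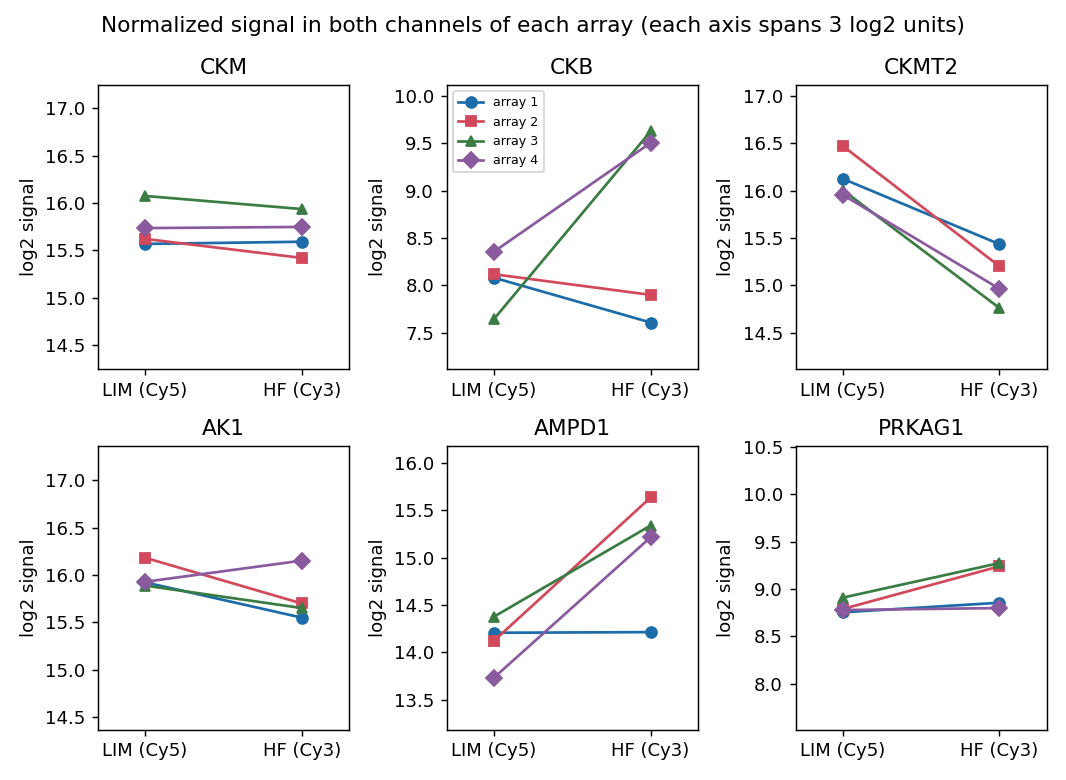
Normalized log2 signal (vertical axis, each spanning 3 log2 units) in the channel labelled LIM, left, and the channel labelled HF, right, of each array; lines join the 2 channels of an array. CKMT2 is lower in HF on all 4 arrays, AMPD1 is level on array 1 only, and CKB splits into arrays 3 and 4, near 9.6 in HF, and arrays 1 and 2, below 8 in HF.

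The cytosolic and mitochondrial muscle isoforms were compared within each array, which removes anything that acts on both probes alike. The CKM ratio minus the CKMT2 ratio was -0.71, -1.07, -1.11 and -1.01 on arrays 1 to 4, with a mean of -0.98 ± 0.18 (SD, n = 4). All 4 arrays had the same sign, and the exact sign-flip permutation test over arrays gave p = 0.125 (two-sided), the smallest that 4 arrays allow. The CKM ratio minus the CKB ratio was -0.50, -0.02, 2.12 and 1.14, with a mean of 0.69 ± 1.18 (SD, n = 4) and p = 0.5 in the same exact test. That mean was 0.21 without array 3 and 1.08 without array 1. Adjusted over these 2 pairs, p was 0.25 and 0.5. The pair of PRKAG3 and PRKAG1 was not analysed here. CKMT1A, the mitochondrial isoform of other tissues, which was named after its value was seen, had -0.06 ± 0.07 on a dim probe, and 0.040 with median centring.

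AK1 and AMPD1 act on the adenylates, and neither passed. AK1 had log2 signals of 15.92, 16.18, 15.89 and 15.93 in LIM muscle and of 15.55, 15.70, 15.65 and 16.15 in HF muscle. Its ratio was above 0 on arrays 1, 2 and 3, at 0.37, 0.48 and 0.24, and below 0 on array 4, at -0.22 (mean 0.22 ± 0.13, adjusted p = 0.346 in limma, 95% interval from -0.11 to 0.55).

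AMPD1 had log2 signals of 14.21, 14.12, 14.38 and 13.73 in LIM muscle, against 14.21, 15.64, 15.34 and 15.22 in HF muscle. On arrays 2, 3 and 4 the HF value was above every LIM value, and on array 1 the channels were level. The ratios were -0.01, -1.52, -0.96 and -1.48, with a mean of -0.99 ± 0.27 that did not pass (adjusted p = 0.096, unadjusted p = 0.0136, limma), and 1.62% of all genes tested had a ratio this low or lower, a share at the high end with the sign turned. Without array 1 the mean was -1.32 and the adjusted p 0.0563.

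The fibre type markers were set beside these values. Of 6 fast fibre markers 2 passed, the troponin TNNC2 (0.68) and the calcium buffer PVALB (1.90), and both rose. ATP2A1 and ACTN3 had 0.82 and 0.48 without passing. The fast myosins did not pass either, with -0.51 for MYH2 and -0.04 for MYH1. Of 7 slow fibre markers 1 passed, the myosin light chain MYL3, which fell by 0.74, while the slow myosin MYH7 had -1.06 and MYOZ2 -0.03. TNNC1, ATP2A2, MYL2 and TNNT1 had -1.12, -1.02, -0.88 and -0.87 without passing. Of 7 general fibre markers LDB3 rose (0.88), and DES, TCAP and CAV3 had -0.38, -0.23 and -0.15 without passing.

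Summed signals, which the brightest probes carry, ran from 675612 to 738662 in LIM muscle and from 531792 to 591459 in HF muscle for the fast markers. For the slow markers they ran from 187249 to 299646 in LIM muscle and from 331589 to 764503 in HF muscle. Neither pair of ranges overlapped, while the mean ratios of single fast markers had either sign. The sums of the 7 general fibre markers did not overlap either. They ran from 562660 to 634631 in LIM muscle and from 468800 to 538304 in HF muscle. The brightest of these 7 was MYOZ1, with a mean log2 signal of 17.43 and a ratio of 0.21 that did not pass. Whether the 7 are neutral to fibre type was not tested. The highest slow fibre sum was that of the HF bull of array 1, the only HF bull whose AMPD1 signal was as low as in LIM. The part of fibre type in the values of CKMT2 and AMPD1 was not tested.

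PRKAG1, a gamma subunit of AMPK found in most tissues that binds AMP, was the only AMPK subunit of the set with a matched probe. Its log2 signals were 8.75, 8.79, 8.91 and 8.78 in LIM muscle and 8.85, 9.24, 9.27 and 8.80 in HF muscle. The ratio was below 0 on all 4 arrays, at -0.10, -0.45, -0.37 and -0.02, and its mean of -0.23 ± 0.10 did not pass (adjusted p = 0.192 in limma, 95% interval from -0.48 to 0.0069). Its direction turned with median centring in place of the intensity-dependent correction (0.26, adjusted p = 0.181). The median of all genes was then 0.35.

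The brightness of a probe depends on its sequence as well as on the mRNA, so ranks are given per probe and not as an order of mRNA levels. The CKM probe lay between the 99.6th and 99.7th percentile of all 21475 probes in the channel labelled LIM and between the 99.5th and 99.7th in the channel labelled HF. The AK1 probe was at or above the 99.6th percentile in every channel, the CKMT2 probe at or above the 99.1st and the AMPD1 probe at or above the 98.3rd. The PRKAG1 probe lay between the 72.2nd and 77.4th percentile over both channels. The CKB probe lay between the 59.5th and 67.9th percentile in LIM and between the 58.7th and 80.5th in HF. No spot on the arrays was saturated.

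These ranks matter because the red channel gained on the green with brightness, and the correction removed 0.72 from the CKM ratio, 0.71 from CKMT2, 0.72 from AK1 and 0.70 from AMPD1, but 0.43 from CKB and 0.49 from PRKAG1. With median centring, which leaves this trend in, the median ratio of all genes was 0.35, and that of the 140 genes at least as bright as AMPD1 was 0.62. CKM then had 0.79, CKMT2 1.76, AK1 0.93 and AMPD1 -0.29. Set against those 140 genes, CKMT2 stood 1.14 higher with median centring and 1.14 higher with the main correction, CKM 0.17 and 0.16 higher, AK1 0.32 and 0.30 higher, and AMPD1 was at -0.91 under both. The order of the bright members among genes of like brightness therefore did not change with this choice, while their distance from 0 did.

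**Figure D3:**
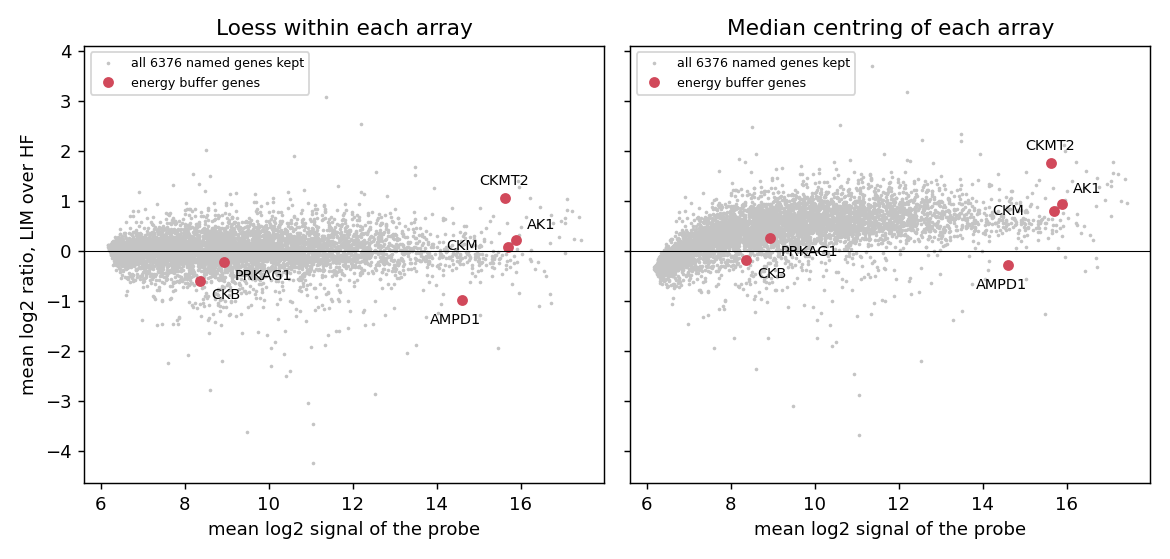
Mean log2 ratio, LIM over HF (vertical axis), against the mean log2 signal of the probe (horizontal axis) for 6376 named genes (grey) and the energy buffer genes (red), with loess within each array at left and median centring at right. CKM, AK1, CKMT2 and AMPD1 lie at the bright end, where median centring moves them up by 0.70 to 0.72; CKMT2 stays above and AMPD1 below most genes of that brightness in both panels.

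Around these genes, 38 others of creatine supply, adenylate metabolism and AMPK signalling had a matched probe and 36 were tested, AK5 and AK7 being too dim. Of the 36, 5 rose, 1 fell and 30 did not pass, with a median ratio of -0.055, where 5.93% of all genes passed, 2.78% higher and 3.15% lower. The lists below hold between 1 and 9 tested genes, so their counts are given as counts only. With median centring 12 were higher and 0 lower, where 1624 of all genes were called higher and 109 lower. Channels that do not overlap, given below for single genes, were found in 17.1% of all genes tested. PNP, PRKAA1, SLC25A5 and VDAC3 had such channels too and did not pass.

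Neither the 3 tested genes of creatine supply (SLC6A8, GATM and GAMT) nor CKMT1A passed, with ratios between -0.12 and 0.22. SLC6A8, the transporter that brings creatine into the fibre, had 0.18 ± 0.11, with 0.27, 0.24, -0.20 and 0.39 on arrays 1 to 4 (adjusted p = 0.371 in limma, and 0.024 with median centring). None of 4 other adenylate and nucleoside diphosphate kinases passed either, and their ratios lay between -0.26 and -0.059. NME4, a mitochondrial nucleoside diphosphate kinase, had -0.24 ± 0.07 (adjusted p = 0.102) and turned with median centring (0.40). All genes had a median of 0.35 with that centring.

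In the purine nucleotide cycle and AMP salvage, 1 of 9 genes rose. ADK, which phosphorylates adenosine back to AMP, had log2 signals of 8.73, 8.48, 8.61 and 8.61 in LIM muscle, against 8.16, 8.08, 8.02 and 8.01 in HF muscle. The LIM values all lay above the HF values, and the ratio was 0.54 ± 0.07 (adjusted p = 0.0264 in limma). AMPD2, an AMP deaminase of tissues other than muscle, was named after its value was seen, as the counterpart of AMPD1. Its ratios were 0.10, 0.33, 0.33 and 0.37, with a mean of 0.29 ± 0.07 that did not pass (adjusted p = 0.0844, and 0.0348 with median centring). AMPD1 and AMPD2 thus had opposite signs on arrays 2, 3 and 4, while AMPD1 was level on array 1 (-0.01). This difference was not tested.

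Of 4 upstream kinases and partners of AMPK, 2 rose and 1 fell, all in the complex that activates it. LKB1, the kinase that phosphorylates AMPK, works only together with a STRAD pseudokinase and the scaffold protein MO25. LKB1 itself (STK11) was not analysed here. CAB39, which encodes MO25, had log2 signals of 12.26, 12.43, 12.41 and 12.14 in LIM muscle, against 11.38, 11.86, 11.84 and 11.64 in HF muscle. The groups did not overlap, and its ratio was 0.63 ± 0.09 (adjusted p = 0.0307 in limma).

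The STRAD genes moved apart. STRADB had log2 signals of 8.85, 8.86, 9.17 and 9.12 in LIM muscle, against 8.24, 8.46, 8.48 and 8.35 in HF muscle, and rose with a ratio of 0.62 ± 0.08 (adjusted p = 0.0275 in limma). STRADA had 8.53, 8.64, 8.61 and 8.56 in LIM muscle, against 9.02, 9.25, 9.18 and 8.87 in HF muscle, and fell with a ratio of -0.49 ± 0.07 (adjusted p = 0.0351). For either gene the channels did not overlap. With median centring STRADA was at -0.01 (adjusted p = 0.944), where all genes had a median of 0.35, and it missed the threshold from processed signals (adjusted p = 0.0528).

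PRKAA1, the AMPK catalytic subunit of most tissues, had a small positive ratio on all 4 arrays, 0.29, 0.21, 0.17 and 0.10, from a dim probe that was well above background in HF on 3 of 4 arrays. Its mean of 0.19 ± 0.06 did not pass (adjusted p = 0.132 in limma). PRKAB2 and PRKAG2 were not analysed here.

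Of 8 AMPK substrates and targets 1 rose. TBC1D1, a Rab GTPase-activating protein that AMPK phosphorylates on the way to glucose uptake, had log2 signals of 8.83, 9.15, 9.31 and 8.97 in LIM muscle, against 8.52, 8.16, 8.51 and 8.24 in HF muscle. The channels did not overlap, and the ratio was 0.71 ± 0.12 (adjusted p = 0.044 in limma, and 0.0585 without the filter on dim probes). PFKFB3, which makes an activator of glycolysis and was named after its value was seen, had the lowest ratio of all 36 genes, -1.28 ± 0.33 (adjusted p = 0.0834). Its ratios were -1.79, -1.52, -0.03 and -1.80, so array 3 alone was near 0, and without array 3 it passed (-1.70, adjusted p = 0.0287). Without array 1, 2 or 4 it did not pass (adjusted p = 0.175, 0.217 and 0.234 in limma).

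Of 6 genes of ATP and ADP exchange across the mitochondrial membranes, 1 rose. SLC25A4, the ADP/ATP carrier of heart and skeletal muscle, had log2 signals of 14.77, 14.66, 14.58 and 14.66 in LIM muscle, against 13.97, 14.16, 14.30 and 14.02 in HF muscle. Its ratio was 0.55 ± 0.10 (adjusted p = 0.0471 in limma), and this call was lost under 10 of 18 alternatives, which beside those with 1 array left out were processed signals, the series value table, centring on the probes kept, a wider loess span, no filter on dim probes and the methods' t-test after adjustment. SLC25A5, the ADP/ATP carrier of growing cells, which was named after its value was seen, had the opposite sign on all 4 arrays, -0.62, -0.10, -0.78 and -0.63 (mean -0.53 ± 0.12, adjusted p = 0.0727). It passed under 4 of 18 alternatives, with an offset of 10 (adjusted p = 0.0499), an intensity trend and robust prior (0.0445), the series value table (just under the threshold) and the methods' t-test at its thresholds. Its probe was dim, with a mean log2 signal of 7.49 against 14.40 for SLC25A4. Of the same list, SLC25A6 and VDAC3 were also below 0 on all 4 arrays without passing. SLC25A6 had -0.34 ± 0.13 (adjusted p = 0.167 in limma) and VDAC3 -0.69 ± 0.15 (adjusted p = 0.0609). The difference between SLC25A4 and SLC25A5 was not tested. As for CKMT2, each of these 6 calls was lost when any 1 array was left out, with adjusted p between 0.0563 and 0.159.

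**Figure D4:**
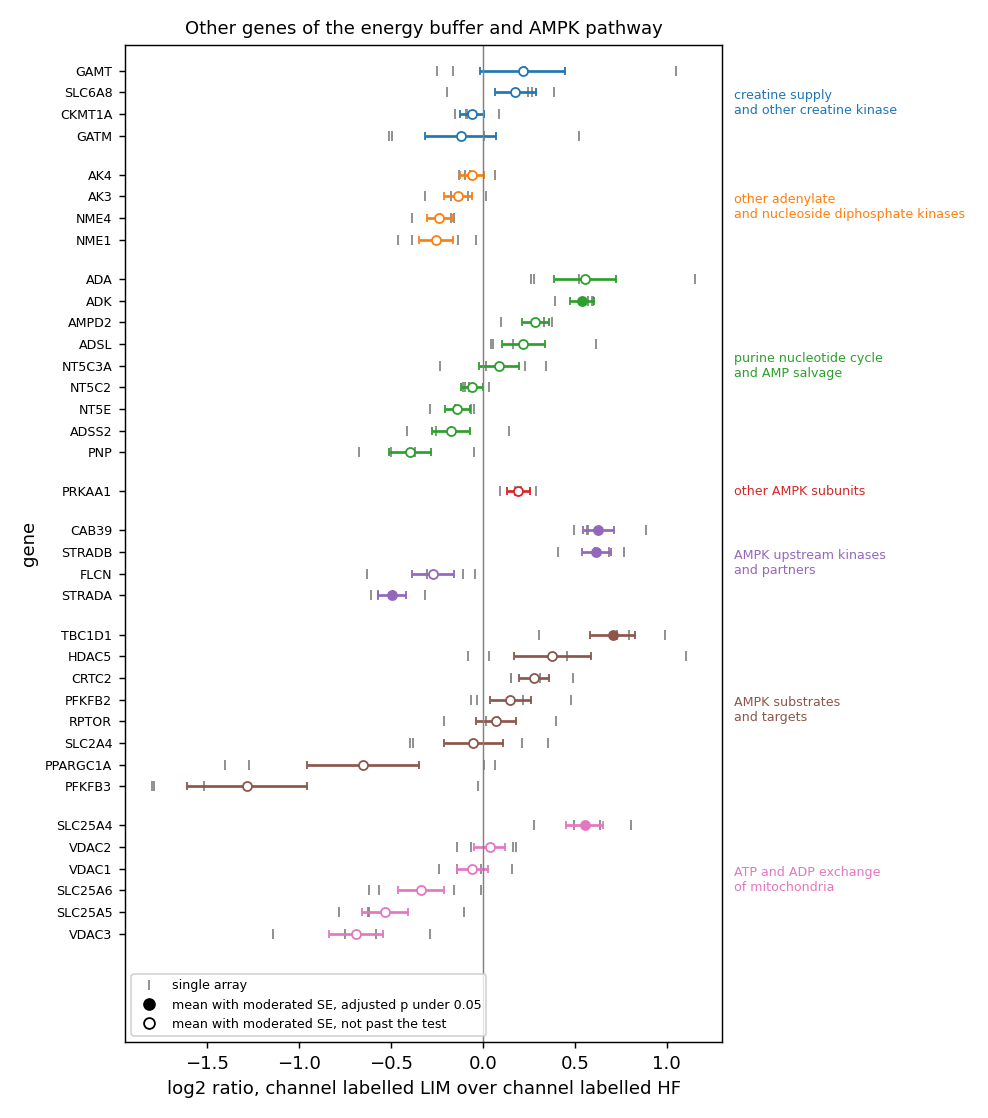
The 36 other genes of the pathway, grouped by role, are placed by their log2 ratio of LIM over HF (horizontal axis). Circles are means with moderated SE, filled where the adjusted p was under 0.05, and ticks are single arrays; CAB39, STRADB, ADK, TBC1D1 and SLC25A4 are filled above 0 and STRADA below 0.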

How the data were processed

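RNA of 4 LIM and 4 HF bulls was measured on 4 two-colour Agilent bovine arrays, which lay on 1 slide and were scanned together. Per the file headers the authors quantified spots with Feature Extraction 10.7.3.1. Among the deposited intensity columns, the medians over the pixels of a spot and of its local background were used, which the authors had not normalized; processed signals served as an alternative. The deposited log10 ratios are processed red (Cy5) over green (Cy3). The series value table holds the same log10 ratios (largest difference 0), with column medians of 0, 0, 0 and 0, of which 5507 to 6743 per array are exactly 0. The deposited flags, marked here as other values, note spots well above background (32513 to 33527 of 42990 in LIM, 27102 to 28769 in HF), and 5 to 10 non-uniform spots per array were left out.

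Background was corrected with limma's normexp (offset 50), log2 ratios were normalized by loess (span 0.3, control spots at weight 0), and spots of a probe were averaged. A probe was kept when either breed's channel had it well above background on 3 or more arrays (15856 of 21475). The offset shrinks ratios of dim probes. Channel signals are after loess and Aquantile. Summed marker signals add these on the linear scale. Mean ratios were tested against 0 (two-sided) with limma 3.58.1 in R 4.3.3 and Benjamini-Hochberg adjustment over all probes kept, which called 868 probes. Intervals are 95% from the moderated statistic. The fit was tested on simulated data. The number of arrays limits the precision.

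Accessions were matched to a RefSeq gene table (ARS-UCD2.0), which named 8297 probes and is of another build than the array, so positions are left out. The members and lists were chosen with earlier results of these data known. Named were all members, up to 3 called genes per list by the largest ratio or else the gene with the smallest p, and the other AMPK subunits. CKMT1A, AMPD2, PFKFB3, SLC25A5, SLC25A6, VDAC3, PNP and single cell and fibre markers were named after their values were seen. The design included a PRKAG3 pair that was not analysed here. Alternatives covered background, offset, centring, loess span, filter, prior, array weights, the methods' t-test, unpaired channels, the series value table, averaged probes and each array left out.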

Additional observations from a re-analysis of the deposited data

Results flagged for a closer look

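Dixon's ratio divides the gap between an extreme array and its neighbour by the whole range. It was past its critical value for 3 of 30 values checked, and chance alone would give about 1.5. For ADK it was 0.863, with 0.39 on array 2 against 0.57 to 0.60 on the others. For AMPD2 it was 0.849, with 0.10 on array 1 against 0.33 to 0.37. For PFKFB3 it was 0.840, with -0.03 on array 3 against -1.80 to -1.52. None of the 6 energy buffer genes was among them, and for AMPD1, whose array 1 stood alone, it was 0.634.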

How the results depend on the processing

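CKMT2 kept its direction under all 18 alternatives and passed under 13 of them; it did not pass after Benjamini-Hochberg adjustment of the methods' t-test (adjusted p = 0.136) or without any 1 array. AK1, AMPD1 and CKB kept their direction and did not pass under any of 18. Directions turned for CKM with a loess span of 0.7 (-0.047) and, with median centring, for PRKAG1 (0.26), NME4 (0.40) and CKMT1A (0.040). The median of all genes was 0.35 with median centring. Median centring also moved the median of the 6 genes to 0.53, the probes called to 3800 (3525 higher and 275 lower, against 470 and 398 in the main fit) and the other pathway genes called to 12. The probes called were 1336 from processed signals, 1339 from the series value table, 1310 with an intensity trend and robust prior, 1479 by the methods' t-test at its thresholds and 1 after its Benjamini-Hochberg adjustment, where 0 energy buffer genes and 0 other pathway genes passed, against 1 and 6. Without 1 array, 0 to 51 probes, 0 energy buffer genes and 0 to 1 other pathway genes (PFKFB3) passed. Fitting the channels as unpaired samples, without the array as a replicate block, called 1091 probes and changed no call among the energy buffer genes. The slide could not be used as a block, since all arrays lay on 1. PRKAA1 had no value where both channels had to be well above background on all arrays. The cause of these changes was not tested.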
